A study of Mus musculus with 6 samples.

Results

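Tight junction genes were followed in mouse RENCA cells, a renal adenocarcinoma line, with and without overexpression of the water channel gene Aqp1. The 10 genes were Cldn1, Cldn2, Cldn3, Cldn4, Cldn7, Cldn12, Ocln, Tjp1, F11r and Cgn. They were picked by gene name from the 78298 genes of the deposited table, and all 6 samples were read for each. Counts were high enough for testing in 8 of the 10, and Cldn2 and Ocln were left out of the test for too few reads.

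Tight junctions close the gap between neighbouring epithelial cells near their apical surface and control which ions and solutes pass between the cells. Claudins are the membrane proteins that form the sealing strands, and their mixture sets how leaky an epithelium is, which differs along the segments of the kidney tubule. Occludin and the junctional adhesion molecule JAM-A sit in the same membrane contacts, while the scaffold ZO-1 and the adaptor cingulin lie on the cytoplasmic side and connect the strands with actin and myosin.

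RENCA cells received a lentivirus carrying the mouse Aqp1 coding sequence under a ubiquitin C promoter with a puromycin resistance cassette (oe-AQP1, n = 3), or the empty vector as negative control (oe-NC, n = 3). From 48 hours after transduction both groups were kept in puromycin (2 μg/mL) over 14 days, and they were grown to 80% confluence before total RNA was taken. No cells without virus were included, and every sample carries the same batch label. The series calls the samples biological replicates without saying whether each had its own transduction.

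The values are estimated read counts per gene, which summed to 19758517.73, 21920898.67 and 20468700.71 in oe-AQP1 replicates 1 to 3. The oe-NC replicates 1 to 3 had 19788719.78, 18385714.02 and 21396273.57 counts. CPM below is the count relative to library size (counts per 1000000 reads) after TMM scaling between libraries, and TPM is the same kind of share after the count is divided by the exon length of the gene. Log2FC is the log2 fold change of oe-AQP1 over oe-NC from limma-voom, and FDR is its p-value after Benjamini-Hochberg adjustment over the 15522 genes tested. A gene is called here when its FDR is below 0.05.

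Aqp1 itself was read first, as a check of the labels. The 3 libraries with the Aqp1 virus held 7713, 8545 and 7838 reads of it, and the 3 control libraries 41, 25 and 45, with a log2FC of 7.70 (SE 0.16), and so each library matched its label.

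One control library, oe-NC replicate 1, stood apart from the other 2 of its group. Its counts differed from theirs by a chi-square of 8.76 and 10.1 per gene, whereas the other pairs of libraries within a group gave 1.71 to 1.99. On the second principal component, with 11.1% of the variance, it scored 27.67 and the other oe-NC libraries -13.84 and -15.18. For the tight junction genes, values without it are also given where leaving it out changed a call or a sign, or moved a value by over 1.5 times, and for the other gene lists the counts without it are given.

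Of the 8 tight junction genes tested, Cgn was higher and Cldn3 was lower in oe-AQP1 cells, and the other 6 were not called. Both changes were small, a 1.27-fold level for Cgn and a 0.861-fold level for Cldn3. Over all genes, 32.5% were called in either direction, 16.0% as higher and 16.6% as lower, so that 2 of 8 is near the share found among genes at large. No member passed both an FDR below 0.05 and an absolute log2FC above 1 in limma-voom, as 5.23% of all genes did. The count was also 0 with edgeR and DESeq2, and 0 at an unadjusted p below 0.05. Without oe-NC replicate 1, Cldn12 and Tjp1 were called as well, which made 3 higher and 1 lower, where 19.4% of the 16085 genes tested were higher and 20.7% lower. The median log2FC of the 8 genes was 0.03, against 0.002 over all genes tested, and 0.05 against 0.005 without oe-NC replicate 1. Since the samples are bulk cultures, less RNA per cell and fewer expressing cells cannot be told apart.

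**Figure D1:**
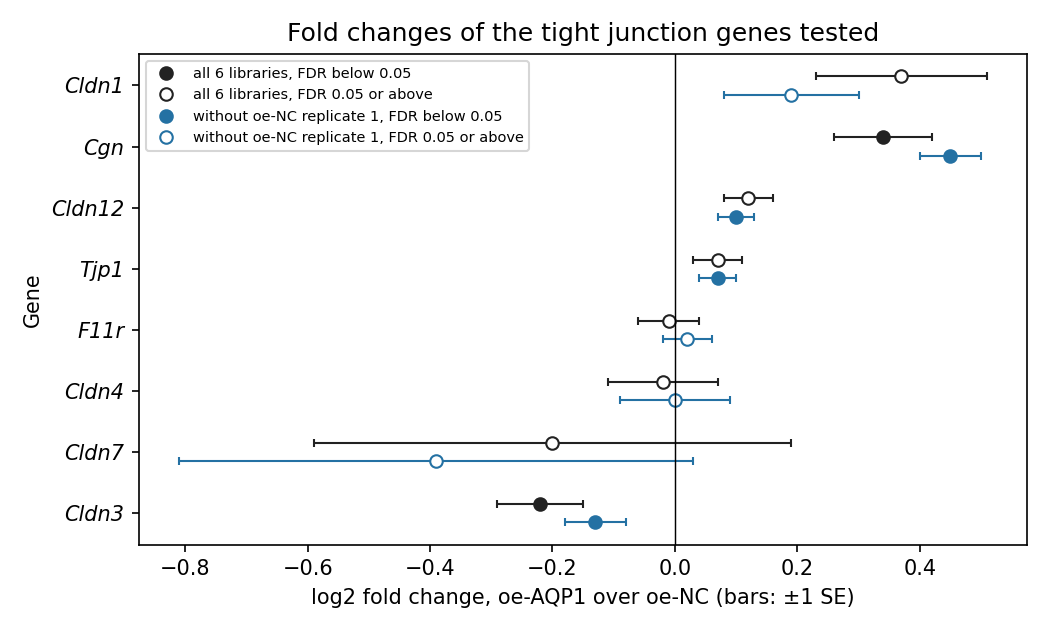
Log2 fold change (horizontal axis, oe-AQP1 over oe-NC) with bars of ±1 SE for the 8 tight junction genes tested by limma-voom, in all 6 libraries (black) and without oe-NC replicate 1 (blue). Filled points have an FDR below 0.05, which Cgn and Cldn3 have in both fits and Cldn12 and Tjp1 have without that library.

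The members covered a wide range of levels. In oe-NC cells the order by TPM was Cldn3 (177 ± 22.9, SD, n = 3), F11r (159 ± 9.56), Tjp1 (88.6 ± 3.71), Cldn12 (46.4 ± 1.38) and Cldn4 (32.0 ± 2.69). Below these came Cgn at a mean of 30.8 ± 5.2 TPM, Cldn1 at 6.69 ± 1.19 and Cldn7 at 1.42 ± 0.676 (SD, n = 3). Neighbours in this order overlapped for Cldn3 and F11r, whose libraries ran from 162 to 203 TPM and from 152 to 170 TPM, and for Cldn4 and Cgn. The other neighbours among these 8 genes did not overlap between libraries.

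In oe-AQP1 cells F11r stood at 164 ± 8.24 TPM and Cldn3 at 158 ± 6.65 TPM (SD, n = 3), and their libraries again overlapped. Cgn was at 39.2, 40.6 and 40.8 TPM there and Cldn4 at 31.2, 36.3 and 31.1 TPM. The Cgn level thus lay above the Cldn4 level in each oe-AQP1 library, while the ranges of both genes overlapped in oe-NC cells. Summed over the 10 members, the level was 599, 616 and 589 CPM in the oe-AQP1 libraries and 592, 571 and 566 CPM in the oe-NC libraries, so the groups overlapped. This overlap rested on oe-NC replicate 1, since the other oe-NC libraries lay below each oe-AQP1 library.

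**Figure D2:**
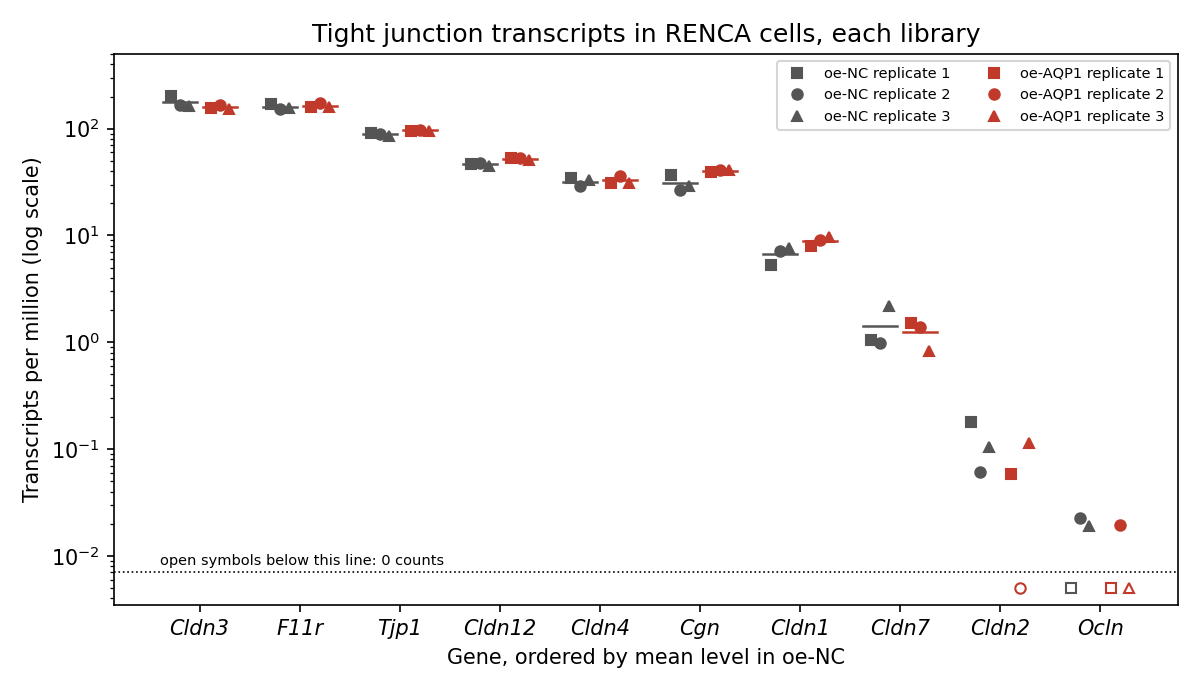
Level of each tight junction gene in TPM (vertical axis, log scale) in each of the 6 libraries, with oe-NC in grey and oe-AQP1 in red, and short lines at the group mean of the 8 genes tested. The 10 genes run from Cldn3 at a mean of 177 TPM in oe-NC cells to Ocln, which has 0 counts in 3 libraries, drawn as open symbols.

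Among the claudins, Cldn3 (ENSMUSG00000070473) encodes a sealing claudin of many epithelia and had the highest level per exon length of the family, though Cldn12, a longer transcript, had more counts. It had 970.03, 1131.24 and 972.04 counts in oe-AQP1 cells and 1257.66, 997.87 and 1140.49 in oe-NC cells. Scaled for depth, these were 49.1, 51.4 and 47.3 CPM against 64.1, 54.6 and 53.5 CPM. In CPM each oe-AQP1 library lay below each oe-NC library, and oe-NC replicate 1 was the highest of the 6. In TPM the groups overlapped, with oe-AQP1 replicate 2 at 165 and oe-NC replicate 3 at 162.

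Cldn3 fell by 0.22 on the log2 scale (SE 0.07, 95% interval -0.38 to -0.06, FDR = 0.0432 by limma-voom). Without oe-NC replicate 1 the log2FC was -0.13 (FDR = 0.0276). The call was lost when any 1 of the oe-AQP1 libraries was left out, with an FDR of 0.115, 0.0693 and 0.154 for replicates 1 to 3, and without oe-NC replicate 2 (FDR = 0.0506). It was also lost when libraries were scaled by their totals alone (log2FC = -0.20, FDR = 0.0519). An exact two-sided permutation test of the Cldn3 values over the samples gave p = 0.1, the smallest that 3 against 3 can give.

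Cldn4 (ENSMUSG00000047501), whose product is closely related to claudin-3, had 280, 359 and 287 counts in oe-AQP1 cells. The oe-NC libraries had 305, 251 and 335. The ranges overlapped in CPM, at 14.0 to 16.3 against 13.7 to 15.7. The log2FC was -0.02 (SE 0.09, 95% interval -0.22 to 0.18, FDR = 0.894 by limma-voom), and its sign changed with the library left out, with 0.00 without oe-NC replicate 1.

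Cldn3 and Cldn4 are neighbours on chromosome 5 of GRCm39. Cldn4 spans 134973973 to 134975788 on the reverse strand and Cldn3 spans 135015068 to 135016326 on the forward strand, with 39279 bases between them. Each has 1 exon in the GENCODE M39 annotation. Whether the fold changes of Cldn3 and Cldn4 differ from each other was not tested. The long noncoding gene Wbscr25 runs across Cldn3 on the opposite strand and had 6.96 to 15.76 counts, against 970.03 or more for Cldn3. Mettl27, the nearest coding gene on the other side of Cldn4, had 148.57 to 178.67 counts.

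**Figure D3:**
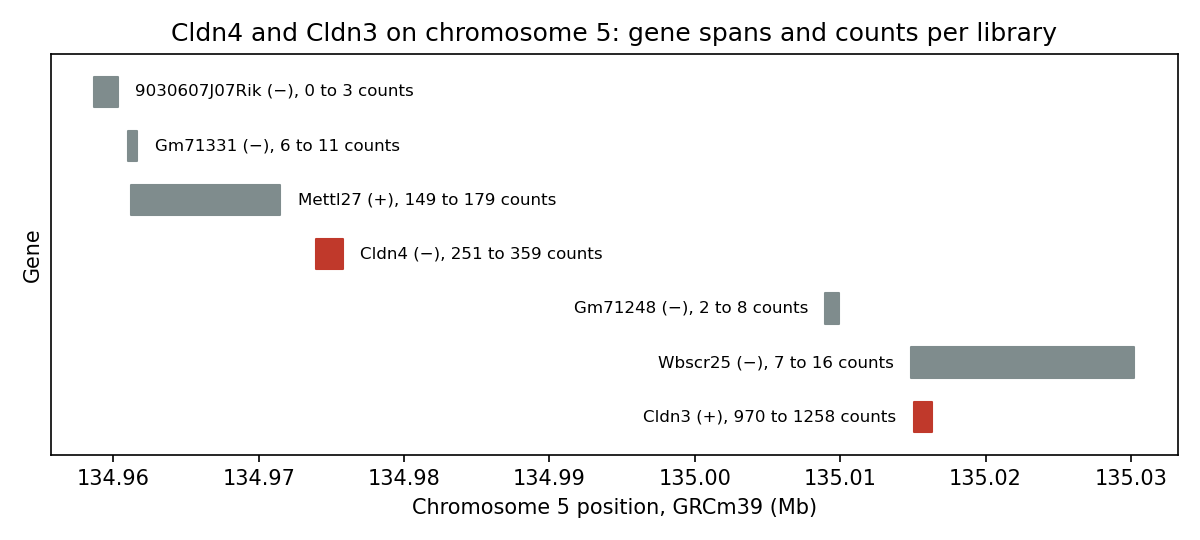
Genes around Cldn4 and Cldn3 on mouse chromosome 5 (GRCm39 position in Mb on the horizontal axis, 1 gene per line, strand in brackets), drawn for genes that reached 3 counts in some library, with the lowest and highest rounded count over the 6 libraries. Cldn4 and Cldn3, in red, lie 39279 bases apart, and Wbscr25 overlaps Cldn3 on the other strand.

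The coding sequences of Cldn3 and Cldn4, of 660 and 633 bases, were identical at 460 of 630 aligned positions (73.0%). Among the 6 member claudins the other pairs ranged from 57.4% for Cldn2 and Cldn3 to 68.7% for Cldn1 and Cldn7. The longest run shared by the Cldn3 and Cldn4 transcripts was 35 bases, against 18 for Cldn3 and Cldn7 and 11 to 14 for the remaining pairs. It is shown because a read lying wholly within it cannot tell Cldn3 from Cldn4. The Cldn4 counts were whole numbers in all 6 libraries, and so show no read split between these genes. The run lies in the coding part of both, at bases 211 to 245 of the Cldn3 coding sequence. Its place is chr5:135015509-135015543 (forward strand) in Cldn3 and chr5:134975352-134975386 (reverse strand) in Cldn4, both in GRCm39:
Shared by Cldn3 and Cldn4: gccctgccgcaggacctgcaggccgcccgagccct

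Cldn1 (ENSMUSG00000022512, chromosome 16, 26175392 to 26190596, reverse strand) encodes a barrier claudin that is required for the water barrier of the skin. It had 190, 239 and 239 counts in oe-AQP1 cells and 127, 166 and 205 in oe-NC cells. In CPM this was 9.61, 10.9 and 11.6 against 6.47, 9.08 and 9.62. In CPM the groups overlapped by a narrow margin, since oe-NC replicate 3 exceeded oe-AQP1 replicate 1, and oe-NC replicate 1 was the lowest of all. In TPM they did not overlap, at 7.94 to 9.69 against 5.33 to 7.55.

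The log2FC of Cldn1 was 0.37 (SE 0.14, 95% interval 0.04 to 0.69), and it was not called (FDR = 0.0783 by limma-voom). The estimate for Cldn1 rested in part on oe-NC replicate 1, without which it was 0.19 (FDR = 0.177). Without oe-NC replicate 3 it was 0.48 and Cldn1 was called (FDR = 0.0446).

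Cldn12 (ENSMUSG00000046798, chromosome 5, 5539537 to 5564995, reverse strand) encodes a claudin that lacks the C-terminal motif by which most of the family bind ZO-1. Its counts were 2676, 2934 and 2668 in oe-AQP1 cells and 2330, 2326 and 2579 in oe-NC cells. In CPM it stood at 135, 133 and 130 against 119, 127 and 121. Each oe-AQP1 library was above each oe-NC library, by a small margin.

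The log2FC of Cldn12 was 0.12 (SE 0.04, 95% interval 0.03 to 0.21), with an FDR of 0.0509 by limma-voom, just outside the threshold. Its call moved with the library left out. Cldn12 passed without oe-NC replicate 1 (log2FC = 0.10, FDR = 0.0164) and without oe-NC replicate 2 (log2FC = 0.15, FDR = 0.0427), while with DESeq2 its FDR was 0.12.

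Cldn7 (ENSMUSG00000018569, chromosome 11, 69852648 to 69858711, forward strand), a claudin found along much of the lateral membrane, was close to the limit of what could be tested. It had 16, 16 and 9 counts in oe-AQP1 cells and 11, 10 and 26 in oe-NC cells, and the groups overlapped. The log2FC of -0.20 had a 95% interval from -1.06 to 0.66, so that neither a decrease nor an increase was detectable at this depth, and its sign changed with the library left out, from -0.39 without oe-NC replicate 1 to 0.19 without oe-NC replicate 3. Exons of Elp5 overlap Cldn7 on the opposite strand, and Elp5 had 1094 to 1322 counts. Whether the counting used strand is not given in the sources used here. How reads in the stretch shared by Cldn7 and Elp5 were assigned is therefore not known. Counts of both genes were whole numbers in all 6 libraries, unlike those of Cldn3 and Wbscr25, which also overlap on opposite strands.

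Cldn2 (ENSMUSG00000047230, chromosome X, 138701480 to 138712135, forward strand) encodes the pore-forming claudin of the leaky proximal tubule. It had 1, 0 and 2 counts in oe-AQP1 cells and 3, 1 and 2 in oe-NC cells. These Cldn2 counts are at or under 3, the number of reads that a count of 0 still allows, which corresponds to 0.137 to 0.163 CPM depending on the library. Such limits cover counting error only.

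Ocln (ENSMUSG00000021638, chromosome 13, 100630334 to 100689535, reverse strand) encodes occludin, the first membrane protein to be identified in tight junctions. Its counts were 0, 1 and 0 in oe-AQP1 cells and 0, 1 and 1 in oe-NC cells. Ocln transcripts were therefore barely detectable in either group, and no fold change is given for Ocln or Cldn2. Gtf2h2, whose span lies 1165 bases from that of Ocln, had 384 to 595 counts in the same libraries. Marveld2, the gene of the related protein tricellulin and the nearest coding gene on the other side at 42928 bases, had 38, 37 and 35 counts in oe-AQP1 cells and 26, 14 and 20 in oe-NC cells. Marveld2 rose (log2FC = 0.82, FDR = 0.0253 by limma-voom) from a low level of 1.16 TPM in oe-NC cells, a call that DESeq2 did not make and that was lost without the low-count filter, without any 1 oe-AQP1 library and without oe-NC replicate 2 or 3.

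F11r (ENSMUSG00000038235, chromosome 1, 171265092 to 171292958, forward strand) encodes JAM-A, an immunoglobulin-like adhesion molecule that also binds polarity proteins. It had 2743, 3273 and 2783.99 counts in oe-AQP1 cells and 2884.97, 2499.99 and 3010.98 in oe-NC cells. The ranges overlapped, at 135 to 149 CPM and 137 to 147 CPM. The log2FC was -0.01 (SE 0.05, 95% interval -0.11 to 0.10, FDR = 0.925 by limma-voom), and its sign changed with the setting, with 0.02 without oe-NC replicate 1. The overlapping noncoding gene Gm26641 on the opposite strand had 15 to 27.02 counts.

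On the cytoplasmic side, Tjp1 (ENSMUSG00000030516, chromosome 7, 64945898 to 65177529, reverse strand) encodes ZO-1, the scaffold that gathers claudins into strands. Its counts were 3751, 4216 and 3853 in oe-AQP1 cells and 3576, 3375 and 3757 in oe-NC cells. In CPM this was 190, 192 and 187 against 182, 185 and 176. All oe-AQP1 libraries lay above all oe-NC libraries, and the difference was small beside the level. Its log2FC was 0.07 (SE 0.04, 95% interval -0.01 to 0.15, FDR = 0.187 by limma-voom). Without oe-NC replicate 1 the log2FC of Tjp1 was again 0.07, with a smaller SE of 0.03, and it was called (FDR = 0.0361).

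Cgn (ENSMUSG00000068876, chromosome 3, 94667376 to 94695136, reverse strand) encodes cingulin, which binds ZO-1 and nonmuscle myosin. It had 1207.31, 1382.06 and 1296.74 counts in oe-AQP1 cells and 1125.45, 799.78 and 1006.96 in oe-NC cells. After scaling, the oe-AQP1 libraries stood close together at 61.0, 62.8 and 63.1 CPM, and the oe-NC libraries were spread over 57.3, 43.8 and 47.2 CPM. Each oe-AQP1 library was above each oe-NC library, with oe-NC replicate 1 nearest to them.

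Cgn rose with a log2FC of 0.34 (SE 0.08, 95% interval 0.16 to 0.53, FDR = 0.0102 by limma-voom). Without oe-NC replicate 1 the estimate was larger, at 0.45 (SE 0.05, FDR = 1.83e-07). Cgn was called with each library left out in turn, at log2FC values from 0.26 to 0.45. The exact two-sided permutation test over samples again gave p = 0.1, the smallest possible. The noncoding genes Gm52626 and Gm65191 overlap exons of Cgn on the opposite strand and had at most 5.98 counts and 1 count.

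CPM of the groups did not overlap for Cgn, Cldn3, Cldn12 and Tjp1, which are 4 of the 8 members tested. Over all genes tested this held for 47.3%, so the share among the members is close to the background.

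The paralog of cingulin in the same plaque, Cgnl1, went the other way. Cgnl1 had 5640, 6508 and 5979 counts in oe-AQP1 cells and 7231, 6351 and 7220 in oe-NC cells, with a log2FC of -0.27 (SE 0.04, FDR = 0.00055 by limma-voom). At 171 TPM in oe-NC cells it was more abundant than Cgn at 30.8 TPM. Cgnl1 was singled out after its values were seen, and the difference between its fold change and that of Cgn was not tested.

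Promoter windows of all 10 members were found in the RefSeq table (GRCm38.p6), each with 250 bases before and 50 after a transcription start, and each window occurs once on its chromosome in GRCm39. They were searched for the E-box CAGGTG on both strands (CACCTG), the form bound by ZEB and SNAIL repressors, whose genes are in a list below. It occurred in a window of 5 of the 10 members, Cldn3, Cldn4, Cldn7, F11r and Ocln, and in 22.7% of all 26742 genes with a window. These 5 include the member with the highest level in oe-NC cells, Cldn3, and the one with the lowest, Ocln. A match is a description of the letters only. One match per gene is shown with its surroundings, with the E-box in capitals, as read on the strand of the gene:
Cldn3, chr5:135015087-135015116, forward strand: caaagccacaggCAGGTGcaggggcagtct
Cldn4, chr5:134975785-134975814, reverse strand: ctttaactgcagCACCTGtggccgcccttt
Cldn7, chr11:69856178-69856207, forward strand: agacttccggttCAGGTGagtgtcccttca
F11r, chr1:171264995-171265024, forward strand: agttcggggttgCACCTGcgtacggtgagt
Ocln, chr13:100689057-100689086, reverse strand: ctaggggctcggCAGGTGggtcccagcgca

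The motif AACNNGTT of grainyhead-like factors, which reads the same on both strands, was found in 1 member, Cgn, and in 4.8% of all genes with a window. It is shown because Cgn is the member that rose and Grhl1, a gene of such a factor, is in a list below. It starts 29 bases before the RefSeq transcription start of Cgn, inside the longer GENCODE span of the gene, which begins at 94695136. The stretch shown is chr3:94693804-94693833 on the reverse strand of GRCm39, with the motif in capitals:
Cgn: tcctggggagtAACAGGTTggtgggcgggg

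Other genes of the junction were read from lists chosen by function, and each count can be set beside the 16.0% of all genes tested that were higher and the 16.6% that were lower (19.4% and 20.7% without oe-NC replicate 1). Of 23 further claudins, 12 had no count in any library and 3 could be tested, of which none was called by limma-voom, edgeR or DESeq2, nor at an unadjusted p below 0.05, and 0 of 3 were called without oe-NC replicate 1. The most abundant of them, Cldn9, reached 15.7 TPM in oe-NC cells, below Cldn3, Cldn12 and Cldn4 and above Cldn1. With the members included, the claudin transcripts of these cells were thus mainly those of Cldn3, Cldn12, Cldn4, Cldn9 and Cldn1.

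Of 13 other junctional membrane proteins, 4 were tested, and besides Marveld2 the adhesion molecules Cxadr and Esam were called, both lower. Cxadr, the coxsackievirus and adenovirus receptor and a relative of JAM-A, was at 76.5 TPM in oe-NC cells and fell by 0.49 (FDR = 1.8e-05 by limma-voom), and Esam fell by 0.40. F11r, at 159 TPM, was not called. In the fit without oe-NC replicate 1, 5 of this list were tested, with 1 higher and 3 lower.

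Among 31 plaque and polarity genes, 25 were tested, 1 was higher and 11 lower, with a median log2FC of -0.12 against 0.002 over all genes, where 16.0% were higher and 16.6% lower. Leaving out oe-NC replicate 1 gave 3 higher and 12 lower. Llgl1, a lethal giant larvae homolog, rose (log2FC = 0.24), while its paralog Llgl2 (log2FC = -0.48), Pard6b of the PAR complex (log2FC = -0.42) and Scrib (log2FC = -0.39) fell. Without oe-NC replicate 1 the decreases of Llgl2 (log2FC = -0.32) and Scrib (log2FC = -0.26) were smaller and still called. With any 1 oe-AQP1 library left out, 6 or 7 of these plaque genes were called. Over all genes 3790, 3601 and 3631 were called without oe-AQP1 replicates 1 to 3, against 5050 with all 6 libraries. The call of Llgl1 was lost without oe-AQP1 replicate 1 or 3 and without oe-NC replicate 2 or 3. Ybx3, the most abundant of the list at 385 TPM, had a log2FC of -0.15, and -0.05 without oe-NC replicate 1, and was not called in either fit.

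The 17 adherens junction and desmosome genes gave 13 tests and 7 calls, each lower, with a median log2FC of -0.33, which was -0.20 without oe-NC replicate 1, again with 7 calls. Over all genes 16.6% were lower. Cdh1, the gene of E-cadherin, was at 3.14 TPM and fell by 0.86, Nectin1 fell by 0.54 and Jup, the gene of plakoglobin, fell by 0.51. Ctnnb1, at 196 TPM, had a log2FC of 0.01. Of 17 actomyosin and protease genes 13 were tested, 1 was higher and 9 lower (1 and 10 without oe-NC replicate 1), with a median of -0.24, beside 16.0% higher and 16.6% lower over all genes. The myosin heavy chain genes Myh14 (log2FC = -0.63) and Myh9 (log2FC = -0.35, or -0.23 without oe-NC replicate 1) and the membrane linker Msn (log2FC = -0.42) fell, and the protease gene St14 rose (log2FC = 0.27), though not with DESeq2, nor without the low-count filter, any 1 oe-AQP1 library or oe-NC replicate 3. Myh9 was the most abundant of the list, at 410 TPM in oe-NC cells. Epcam, whose product stabilises claudin-7 and claudin-1 at the membrane, had no count in any library and was named after this was seen.

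Of 17 transcription and splicing factors of epithelial and mesenchymal states, 11 were tested, 3 were higher and 1 lower, with a median log2FC of 0.00, and without oe-NC replicate 1 there were 4 higher and 1 lower, with a median of 0.13. Zeb2 (log2FC = 0.39), Grhl1 (log2FC = 0.28) and Zeb1 (log2FC = 0.15) rose, and the splicing factor gene Esrp2 fell by 0.71. Under DESeq2, without the low-count filter, and without oe-AQP1 replicate 1 or 2 or oe-NC replicate 2 or 3, 2 of them were called. Over all genes these fits called between 3601 and 4603, against 5050 in the limma-voom fit behind the calls above. The calls of Grhl1 and Zeb1 were lost in each of these fits, and that of Zeb1 also without oe-AQP1 replicate 3, while Zeb2 and Esrp2 were called under all 16 alternatives. Snai1 was the most abundant of the list at 42.3 TPM, with a log2FC of -0.03, and 0.08 without oe-NC replicate 1.

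In the KEGG pathway Tight junction of the deposited annotation, which was looked up after the values were seen, all 10 members are among the 166 genes. Of these 123 were tested, 11 were higher and 44 lower, with a median log2FC of -0.10 against 0.03 for the members, beside 16.0% higher and 16.6% lower over all genes tested. The pathway had 17 higher and 54 lower genes without oe-NC replicate 1, where 19.4% of all genes were higher and 20.7% lower.

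Renal epithelial markers were present, and 5 of the 9 tested were lower in oe-AQP1 cells, also 5 without oe-NC replicate 1, with Cubn (named after its values were seen) in place of Krt19. Over all genes tested 16.0% were higher and 16.6% lower, or 19.4% and 20.7% without oe-NC replicate 1. Without oe-NC replicate 1, Pax2, a kidney lineage factor gene named after its values were seen, was higher (log2FC = 0.41, FDR = 3.99e-06, against 0.25 and 0.124 with it, by limma-voom), as it was with sample quality weights. Krt8, with the most counts of the list, was at 786 TPM in oe-NC cells and fell by 0.41, and Cdh16, the kidney-specific cadherin gene, fell by 0.63. Lrp2 fell by 0.93, and Krt19, with 10 to 26 counts, fell by 0.97 but was not called without oe-NC replicate 1 (log2FC = -0.80, FDR = 0.104), nor without oe-NC replicate 2 or any 1 oe-AQP1 library, without the low-count filter, or with DESeq2. Umod, a marker of the thick ascending limb, was at 0 in each library. Summed over the 11 markers the level was 882, 864 and 850 CPM in oe-AQP1 and 1150, 1050 and 1040 CPM in oe-NC libraries. The part of this shift in the Cldn3 and Cgn results was not tested.

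Lists of markers of other cell types held genes at or near 0 and some with clear counts, and their counts of calls were equal without oe-NC replicate 1. Each count stands beside 16.0% higher and 16.6% lower over all genes tested (19.4% and 20.7% without oe-NC replicate 1). Of 8 macrophage and leukocyte genes 3 were tested and 1 was lower. Adgre1 had no count and Ptprc, named after its values were seen, at most 3, while Cd68, with the most counts, was at 86.6 TPM in oe-NC cells and not called, and Csf1r fell by 1.51. Their summed level was 37.8, 39.6 and 37.1 CPM in oe-AQP1 and 39.9, 42.6 and 41.4 CPM in oe-NC libraries. Of 5 endothelial genes 1 was tested and not called. Kdr had no count and Pecam1, with the most counts, was at 0.439 TPM, and the 5 summed to between 0.93 and 1.77 CPM in the 6 libraries. Of 5 fibroblast genes 1 was tested, Col1a1, which held nearly all their counts and fell by 0.73. Thy1 had no count, and the sum was 12.5, 12.1 and 13.0 CPM in oe-AQP1 against 26.0, 19.9 and 17.6 CPM in oe-NC libraries. Their part in the results on the tight junction genes was not tested.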

How the data were processed

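Total RNA of the 6 cultures was sequenced paired-end from TruSeq libraries by a service company, and the authors deposited estimated counts per gene, not scaled between samples. The paper names GRCm39, while the submitters' processing notes name GRCm38, mm10, fastp, HISAT2, featureCounts and Subread, and 16.3% of genes hold fractional counts. Gene IDs were matched to GENCODE M39 (78168 of 78298), which gave positions and exon lengths. The 2 columns of group means were not used.

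The deposited expected counts were rounded, filtered by filterByExpr, scaled by TMM and compared by limma-voom (limma 3.58.1, edgeR 4.0.16, R 4.3.3), with code tested on simulated data. Of these steps the paper names TMM and limma-voom. It also names a removal of interferon-stimulated and viral defense genes, which is not among the steps here. DESeq2 1.42.0 and edgeR were among 16 alternatives. TPM used exon-union lengths and permutation tests log2(CPM + 0.5). Except where the text says otherwise, named genes were the members, Aqp1, adjacent genes and, per list, the 3 largest called increases and decreases at a mean of at least 10 counts, the highest TPM and, in marker lists, the most counts and genes at 0. Members and lists were chosen with earlier results of these data known.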

Additional observations from a re-analysis of the deposited data

How the results depend on the processing

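Cgn kept its direction and its call under all 16 alternatives. Sample quality weights gave a log2FC of 0.02 for Cldn4, 0.02 for F11r and 0.10 for Cldn12 (FDR = 0.0301, called). Scaling by library size alone gave 0.01 for F11r, 0.13 for Cldn12 (called) and -0.20 for Cldn3 (no longer called). Requiring at least 10 counts in every sample gave 0.00 for F11r and 0.13 for Cldn12 (called). The causes were not tested. With 1 library left out in turn, the log2FC ranged from -0.27 to -0.13 for Cldn3, from -0.09 to 0.02 for Cldn4, from -0.39 to 0.19 for Cldn7, from -0.05 to 0.02 for F11r, from 0.10 to 0.15 for Cldn12, from 0.19 to 0.48 for Cldn1 and from 0.05 to 0.08 for Tjp1. Between 1 and 4 members were called, and between 3601 and 6456 genes in all.

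With the replicate number as a block (paired by number), Cldn1 was called (log2FC = 0.35, FDR = 0.029), and no other member changed its call. Of the other genes named, St14 and Zeb1 lost their call with the block, and Pax2 was called higher. The deviations of same-numbered samples from their group means correlated at 0.009, -0.004 and -0.068. Those of differently numbered samples correlated at -0.049 to 0.057, so no sign of pairing by number was seen. With 3 libraries per group this cannot exclude that same-numbered cultures were handled together, and the labels do not say.

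With the longest annotated transcript as gene length, the mean TPM in oe-NC cells was 134 for Cldn3, 125 for F11r, 73.9 for Tjp1, 42.7 for Cldn12 and 24.2 for Cldn4, which then lay below Cgn (28.4).

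The groups hold 3 samples each, and transcript levels say nothing of protein, of its place in the membrane or of barrier function. Cldn2, Ocln and Cldn7 are limited by depth. The differences of Cldn12 and Tjp1 amount to 1.09-fold and 1.05-fold, and calls of that size moved with the library left out. Aqp1 overexpression cannot be told apart from anything else that differs between the transduced populations.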
